A study of Mus musculus with 14 samples.

Results

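The 9 genes of heme synthesis described here across blood-forming tissues of the mouse are Alas1, Alas2, Alad, Uros, Urod, Cpox, Ppox, Fech and Tmem14c. They were taken by symbol, all 9 were found in every section, and each is 1 of 19465 genes shared by all 14 sections. Expression was measured with probe-based Visium spatial transcriptomics on formalin-fixed, paraffin-embedded tissue, which counts unique molecular identifiers (UMIs) in an array of spots, each covering a small group of cells. The values are CPM, UMIs of a gene per 1000000 UMIs of the section, over spots on tissue in which 1000 or more genes were detected. From purchased wild-type C57BL/6 mice there was 1 section each of adult spleen, of fetal liver at E13.5 and at E14.5, and of bone marrow at P8, at 89 weeks and at 6 months, the last decalcified in 0.5 M EDTA for 5 days. A cross of C1qa heterozygous mice gave E14.5 fetal livers, numbered 2 and 4 by litter, and spleens at 3 months, numbered 1 and 2, each as a pair of wild-type and a pair of C1qa knockout sections. C1qa encodes a chain of complement C1q, a protein made by macrophages, and no label restricts the knockout to a cell type.

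Heme is made from glycine and succinyl-CoA by a chain of enzymes that starts in mitochondria, runs through the cytosol and ends in mitochondria, where iron is inserted into protoporphyrin. The first step, which makes aminolevulinate, has 2 forms: Alas1, the form used by most tissues, and Alas2, the X-linked form of red cell precursors. Alad, Uros and Urod act in the cytosol, Cpox, Ppox and Fech in mitochondria, and Tmem14c is a mitochondrial membrane protein needed for porphyrin transport in erythroblasts. Red cell precursors make most of the heme of the body for hemoglobin, and in the mouse they mature in the fetal liver, the bone marrow and the spleen.

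Promoter sequences are printed for the 2 forms of the first enzyme, which took different orders over the sections, and for Cpox, whose level differed most between fetal liver and spleen. They are the 250 bases before the start of transcription, from RefSeq on GRCm38.p6, written 5′ to 3′ on the strand of the gene. Capitals mark GATA letters (GATA with A or T before it and A or G after it) and CACC letters (CCNCNCCC), both searched on both strands, and overlapping matches are joined.
Alas1 (chr9:106247731-106247980, minus strand): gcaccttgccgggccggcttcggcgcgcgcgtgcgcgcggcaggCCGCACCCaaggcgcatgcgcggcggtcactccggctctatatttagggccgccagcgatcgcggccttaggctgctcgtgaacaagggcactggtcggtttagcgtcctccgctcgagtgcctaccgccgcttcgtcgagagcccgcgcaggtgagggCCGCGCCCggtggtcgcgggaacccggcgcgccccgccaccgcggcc
Alas2 (chrX:150547167-150547416, plus strand): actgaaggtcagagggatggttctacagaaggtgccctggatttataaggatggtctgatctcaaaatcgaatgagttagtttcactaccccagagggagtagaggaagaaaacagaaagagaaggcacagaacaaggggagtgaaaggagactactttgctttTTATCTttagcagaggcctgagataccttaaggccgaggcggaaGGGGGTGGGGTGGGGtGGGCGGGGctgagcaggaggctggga
Cpox (chr16:58669958-58670207, plus strand): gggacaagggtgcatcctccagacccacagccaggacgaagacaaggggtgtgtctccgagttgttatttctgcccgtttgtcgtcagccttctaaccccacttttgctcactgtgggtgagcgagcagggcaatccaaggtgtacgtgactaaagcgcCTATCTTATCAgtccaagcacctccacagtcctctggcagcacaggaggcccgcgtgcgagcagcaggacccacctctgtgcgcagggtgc
In Alas2 1 GATA match lay 86 to 81 bases before the start, and 4 CACC matches lay between 42 and 19 bases before it. Cpox held 2 overlapping GATA matches from 91 to 81 bases before the start and no CACC match, and the Alas1 window shown, 1 of 2 in the table, held 2 CACC matches and no GATA match. The promoter table held 8 of the 9 genes. GATA letters stood in a window of 3 of them (Alas2, Uros and Cpox), against 29.7% of the 27025 genes of the table, and CACC letters in 5 of them (Alas1, Alas2, Alad, Uros and Tmem14c), against 48.5%. Both letter sets are short, and a match is not a bound site.

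Depth after the spot filter ran from 37167 UMIs in the EDTA-decalcified marrow, where 15 of 814 in-tissue spots passed, to 56182915 UMIs in the purchased E14.5 fetal liver, and in the cross from 4225805 to 39595661. C1qa had 1023 to 4343 counts in the wild-type cross sections and 1 or 2 in each knockout section, as the labels say. The livers numbered 4 held much tissue other than liver: 240 of 806 passing spots of wild-type fetal liver 4 and 369 of 589 of knockout fetal liver 4 had at least 0.5% of their UMIs on a list of 12 hepatocyte genes, against 2190 of 2320 and 2074 of 2147 in the livers numbered 2. In P8 bone marrow 303 of 1085 passing spots reached 0.5% on a list of 8 neutrophil genes. Spots that pass this limit, or in spleens those under 0.5% on a list of 8 pancreas genes, are called main-tissue spots below. The values of 1 section were not independent of each other across spots, and the section was the replicate throughout. Fewer red cell precursors and less RNA of a gene per precursor cannot be told apart in these values. Because probes differ in yield, levels are compared between sections and not between genes.

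In the purchased sections, 8 of the 9 genes had their lowest value in adult spleen, and the exception was Alas1. The EDTA-decalcified marrow held 2 to 24 counts of each gene other than Alas2, so that its values for those 8 genes are printed but given no place in the order. The 95% Poisson intervals quoted for single sections cover counting error only, and neighbouring sections are set against the SD of log2 CPM between replicate sections of the cross. That SD comes from 2 pairs per tissue, and bone marrow, which has no replicates, takes the larger of the fetal liver and spleen values. In fetal liver it includes the unequal share of other tissue in the livers numbered 2 and 4. A step within the SD is therefore no finding of equal levels. The SD is the spread of single sections, and differences between 2 sections spread wider than that. A step somewhat beyond it is therefore weak, and none of these steps was tested. Alas1 was listed at 27.3 CPM in E13.5 fetal liver, 23.9 in E14.5 fetal liver, 63.2 in P8 marrow, 144 in 89-week marrow, 108 in EDTA-decalcified marrow and 35.5 in spleen. Leaving out the EDTA value (4 counts, interval 29.3 to 276 CPM), it was highest in the 89-week marrow, followed by P8 marrow and spleen, and lowest in the 2 fetal livers, which differed by less than the replicate SD. Alas2 took a different order, with 1042 CPM in E13.5 fetal liver, 1160 in E14.5 fetal liver, 473 in P8 marrow, 1406 in 89-week marrow, 3901 in EDTA-decalcified marrow and 96.2 in spleen. The EDTA marrow value (interval 3292 to 4590 CPM) exceeded the 89-week marrow by more than the replicate SD of 1.22 on the log2 scale, whereas the 89-week marrow and the 2 fetal livers did not differ beyond that SD.

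The 3 cytosolic enzymes were highest in the fetal livers. Alad, which joins 2 aminolevulinate molecules into porphobilinogen, stood at 777 CPM at E13.5, 905 at E14.5, 248 in P8 marrow, 460 in 89-week marrow, 646 in EDTA marrow and 92.3 in spleen. The E13.5 and E14.5 livers were within the SD of each other, and the steps down to the 89-week marrow, P8 marrow and spleen each exceeded it. Uros, which closes the tetrapyrrole ring, was at 103 and 134 CPM in the E13.5 and E14.5 livers, 34.4, 61.5 and 53.8 in the P8, 89-week and EDTA marrows and 24.8 in spleen. The EDTA value of Uros comes from 2 counts (interval 6.52 to 194 CPM). Urod, which removes carboxyl groups from uroporphyrinogen, was at 612 and 658 CPM in the livers, 234, 280 and 484 in the marrows and 60.2 in spleen.

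Cpox, the first mitochondrial enzyme of the later steps, had the widest gap between the fetal livers and the other purchased sections. It was at 950 CPM at E13.5 and 1197 at E14.5, against 210, 186 and 215 in the P8, 89-week and EDTA marrows and 57.3 in spleen. The step from E13.5 liver down to P8 marrow was 2.18 on the log2 scale, P8 and 89-week marrow did not differ beyond the SD of 0.38, and the 2 livers differed by 0.33 with an SD of 0.27. Fech, which inserts the iron, was at 855 and 1196 CPM in the livers, 317, 357 and 377 in the marrows and 80.0 in spleen. Ppox, which oxidizes protoporphyrinogen, was at 335 and 395 CPM in the livers, 147, 235 and 242 in the marrows and 97.5 in spleen, the smallest ratio of highest to lowest section among the enzymes. Tmem14c was at 249 and 227 CPM in the livers, 109, 204 and 269 in the marrows and 88.7 in spleen, and both livers and the 89-week marrow were each within the SD of the next. P8 marrow was below the 89-week marrow for 8 of the 9 genes, all but Cpox, although Urod and Fech differed by less than the SD. When it was restricted to its 303 main-tissue spots the summed CPM of the 9 genes rose from 1834 to 3025, against 3335 in the 89-week marrow, whose passing spots were nearly all main-tissue spots. The study describes adult femurs as cryosectioned, with the marrow freed of bone before it was put in paraffin. Age and preparation therefore cannot be told apart between these 2 marrows.

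**Figure D1:**
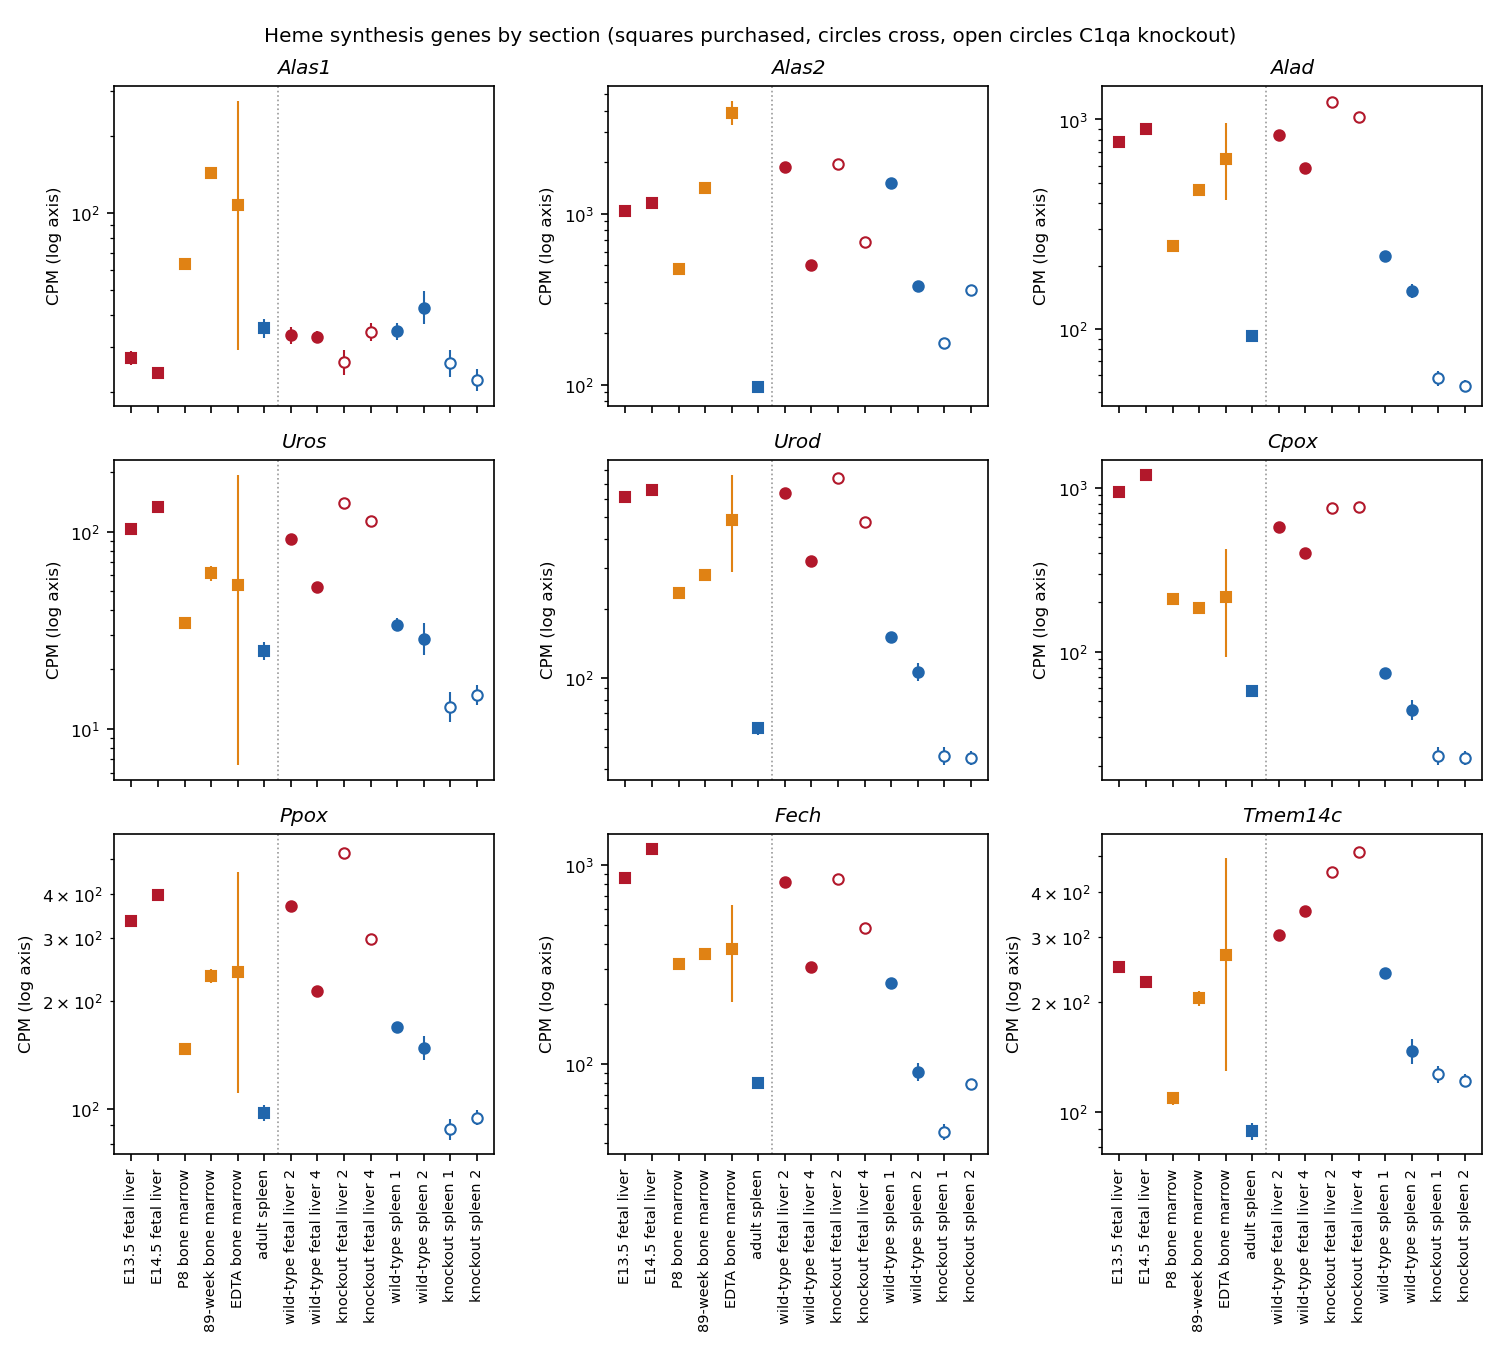
CPM of each heme synthesis gene on a log axis in the 14 sections, with 95% Poisson intervals, purchased sections left of the dotted line and cross sections right of it, coloured by tissue (red fetal liver, orange bone marrow, blue spleen; open symbols are C1qa knockout). In the purchased sections 8 genes are lowest in spleen, and Alas1 is highest in the 89-week marrow, at 144 CPM.

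Fetal liver and spleen were compared over the 8 cross sections with genotype in the fit (edgeR quasi-likelihood F test, Benjamini-Hochberg adjustment over 19180 genes). All 9 genes were higher in fetal liver, with a median log2 fold change of 3.05. Over all genes 25.6% were called higher and 21.4% lower in fetal liver. Cpox was at 579, 401, 753 and 766 CPM in wild-type livers 2 and 4 and knockout livers 2 and 4, and at 74.4, 44.3, 23.2 and 22.3 in wild-type spleens 1 and 2 and knockout spleens 1 and 2. The lowest liver was above the highest spleen, and the log2 fold change was 4.87 ± 0.53 (SE, adjusted p = 9.95e-05). Alad rose by 3.97 ± 0.58 and Urod by 3.73 ± 0.57, followed by Fech at 3.48 ± 0.67, Uros at 3.05 ± 0.49, Ppox at 2.42 ± 0.49 and Tmem14c at 2.11 ± 0.34. Alas2 was at 1877, 498, 1941 and 685 CPM in the livers and 1506, 375, 176 and 358 in the spleens, in the same order of sections. The tissues overlapped, because wild-type spleen 1 exceeded both livers numbered 4, and the log2 fold change was 2.30 ± 0.82 (adjusted p = 0.0424). Alas1 was at 33.4, 33.0, 26.1 and 34.4 CPM in the livers and 34.7, 42.8, 26.0 and 22.3 in the spleens. These CPM overlapped fully, and its log2 fold change of 0.80 ± 0.26 (adjusted p = 0.0277) arose under TMM scaling, against 0.05 from library totals alone.

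The calls of Alas1 and Alas2 gave way under other scaling, and those of Ppox and Fech as well in the wild-type sections alone. With upper-quartile factors or no scaling factors 7 genes were called, all but those 2, and in the 4 wild-type sections alone 5 were called (Alad, Uros, Urod, Cpox and Tmem14c). Without scaling factors the split over all genes was 1946 higher and 3951 lower, in place of 4914 and 4105, and the median over the whole table, on the log2 scale, was -0.72 in place of -0.10. The 14 genes of an erythroid list that holds no heme synthesis gene moved alongside, 12 of them higher in fetal liver with a median of 3.97, and their part in the result was not tested. Tissue and stage cannot be told apart, since the livers were embryonic and the spleens adult.

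In fetal liver, loss of C1qa was not accompanied by a detectable change of any of the 9 genes. None was called by edgeR (0 of 18986 genes, 0%, with 138 at an unadjusted p under 0.05), and all 9 had an adjusted p of 0.999821. Log2 fold changes, knockout minus wild type, ran from -0.40 ± 0.49 for Alas1 to 0.55 ± 0.70 for Uros, with a median of 0.31, and the SE reached 1.25 for Alas2. For Alas2 and Fech the 2 sections of a genotype differed more than the genotypes did, since Alas2 was at 1877 and 498 CPM in wild type and at 1941 and 685 in knockout, and Fech at 823 and 308 against 846 and 481. Both were high in the livers numbered 2 and low in those numbered 4. Within each litter the knockout CPM was above the wild type for 8 of the 9 genes, all but Alas1, and in main-tissue spots for 4 of the 9 (Alad, Uros, Cpox and Ppox). Alad was at 847 and 586 CPM in wild type and 1211 and 1033 in knockout, and Tmem14c at 304 and 355 against 452 and 513, so that for these 2 genes both knockouts were above both wild types. Uros (91.5 and 52.5 against 139 and 113) and Cpox (579 and 401 against 753 and 766) did not overlap either, and Urod (637 and 322 against 741 and 478) and Ppox (369 and 214 against 520 and 299) did.

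The Alas2 levels of the livers numbered 2 and 4 lay closer together when only main-tissue spots were used. In these spots Alas2 stood at 1943 and 1140 CPM in wild-type livers 2 and 4, against 1993 and 945 for knockout, and the summed CPM of the 9 genes in wild-type fetal liver 4 was 5827 in place of 2769. Alad then stood at 875 and 1235 CPM in wild type against 1243 and 1380 in knockout, Cpox at 600 and 918 against 773 and 1040, Uros at 94.2 and 108 against 143 and 150, and Tmem14c at 312 and 708 against 462 and 669. Cpox and Tmem14c overlapped between genotypes in these spots, Alad and Uros did not, and the median log2 fold change of the 9 genes was -0.04. Because the numbers are litters, the fit was repeated with litter as a block: 5 genes rose and 152 fell (0.0263% and 0.801% of those tested), none of the 9 among them, and the lowest adjusted p of the 9 was 0.558, for Uros at 0.64 ± 0.28. With 1 section left out the median of the 9 genes ran from -0.75 without knockout fetal liver 2 to 1.34 without wild-type fetal liver 2, with no gene of the 9 called. The 6 skeletal muscle genes of a list had a summed 3048 and 1208 CPM in wild-type livers 2 and 4 and 338 and 102 in the knockouts, all 6 called lower under the litter block.

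**Figure D2:**
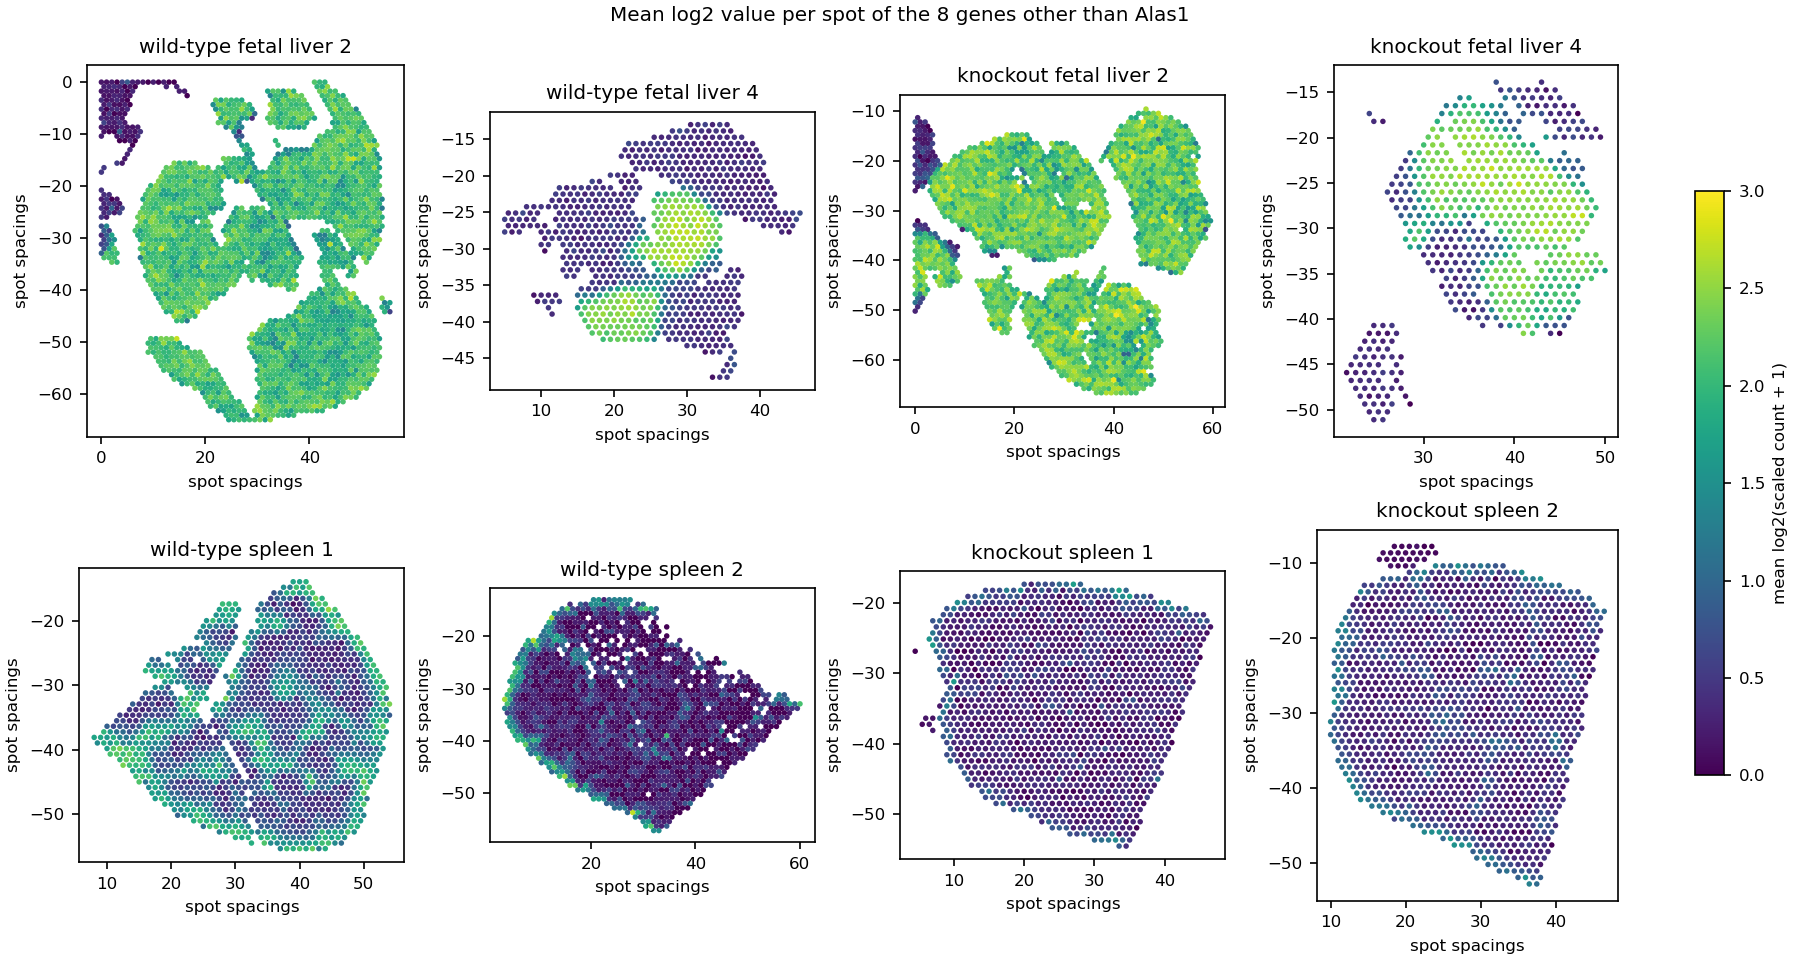
Mean log2(scaled count + 1) of the 8 genes other than Alas1 at each passing spot of the 8 cross sections, with both axes in spot spacings. Livers 2 are evenly high except at patches near an edge, livers 4 hold large low areas (240 and 369 main-tissue spots), and spleens are low inside with a brighter rim.

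In spleen, 7 of the 9 genes were lower in the C1qa knockout than in wild type. Of 18895 genes, 6.79% were called lower and 13.8% higher. Alad had 224 and 151 CPM in the wild-type pair (spleens 1 and 2) and 58.2 and 53.7 in the knockout pair. Both knockouts were less than the lower wild type, and the log2 fold change was -1.50 ± 0.18 (SE, adjusted p = 3.28e-05 by the edgeR quasi-likelihood test). Urod, at 151 and 106 CPM against 45.4 and 44.6, fell by 1.26 ± 0.18 on the log2 scale (adjusted p = 0.000171). Cpox, at 74.4 and 44.3 against 23.2 and 22.3, fell by 1.15 ± 0.21 (adjusted p = 0.000903). Uros, at 33.7 and 28.6 against 12.9 and 14.8, fell by 0.91 ± 0.20 (adjusted p = 0.00388). In these 4 genes the knockouts lay close together and apart from both wild types.

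Alas2, Fech and Ppox were also called, with less distance between the groups. Alas2 stood at 1506 and 375 CPM in wild type and at 176 and 358 in knockout, so that wild-type spleen 2 and knockout spleen 2 nearly met (log2 fold change -1.54 ± 0.42, adjusted p = 0.0150). Fech stood at 254 and 91.3 CPM against 45.7 and 79.5 (-1.20 ± 0.32, adjusted p = 0.0132), and Ppox at 170 and 148 against 87.7 and 94.7 (-0.54 ± 0.16, adjusted p = 0.0271). Tmem14c, at 240 and 147 CPM against 127 and 122, and Alas1, at 34.7 and 42.8 against 26.0 and 22.3, did not pass (adjusted p = 0.144 and 0.0948). All 9 differences were negative, with a median of -1.15. The purchased adult spleen, which is wild type, had 96.2 CPM of Alas2, 80.0 of Fech and 92.3 of Alad on its own feature table, which is not tested against the cross.

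Alad, Urod and Uros were called lower in the knockout in every version of the fit. Cpox was called in all but 1, without knockout spleen 2, where its log2 fold change was -1.22. DESeq2 called 4 genes (these 4), with adjusted p of 0.298 for Alas2, 0.316 for Fech and 0.0640 for Ppox. Without knockout spleen 2 only Alad, Urod and Uros were called and 240 genes in all, without knockout spleen 1 or without wild-type spleen 1 the 4 genes were called, and without wild-type spleen 2 there were 8. Without wild-type spleen 1 the log2 fold change was -0.20 for Alas2, -0.26 for Fech and 0.01 for Tmem14c. Scaling changed the split over all genes, from 2603 higher and 1283 lower under TMM to 1249 and 3464 without scaling factors and 1197 and 4400 with upper-quartile factors, and all 9 genes were called lower under the latter 2. The median of all genes was -0.08, -0.34 and -0.37 in the same order.

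Markers of other cells moved with genotype in the spleens. Of the 14 erythroid genes 12 were called lower, with a median log2 fold change of -2.03, and the mean log2(CPM + 1) of the list was 8.25 and 7.11 in wild type against 5.18 and 5.76 in knockout. Their summed CPM, which the globins dominate, overlapped: 85089 and 21962 in wild type against 10762 and 25280. All 8 neutrophil genes were called lower, with summed CPM of 662 and 593 in wild type against 73.5 and 131. All 7 pancreas genes tested were called higher, with summed CPM of 60.3 and 932 in wild type against 3730 and 25274. In main-tissue spots, which leave out the pancreas-rich ones, the same count of 7 heme synthesis genes was called. Of 5 megakaryocyte genes 2 were called lower, with summed CPM of 259 and 281 in wild type against 121 and 142. Of the B cell and T cell lists, 6 genes each, 2 genes each were called higher. Of 9 macrophage genes 4 were called higher and 1 lower. The part of these cells in the fall of the 7 genes was not tested.

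The genotype effect was next compared between the tissues as the interaction term over the 8 cross sections. That fit takes 1 spread per gene for both tissues. All 9 differences, spleen minus fetal liver, were negative, from -0.04 ± 0.51 for Alas1 to -1.92 ± 0.84 for Alad. None was called, as was no gene of the 19180 tested (0%, with 2018 at an unadjusted p under 0.05). With litter as a block in the livers, 1409 of the 19180 genes were called and 4 of the 9 with them: Alad at -1.94 ± 0.39 (adjusted p = 0.00621), Uros at -1.54 ± 0.30 (0.00493), Cpox at -1.57 ± 0.39 (0.0210) and Urod at -1.43 ± 0.36 (0.0233). DESeq2 also called those 4 in the spleens, but the interaction uses the same spleen sections, so the overlap is no separate result.

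**Figure D3:**
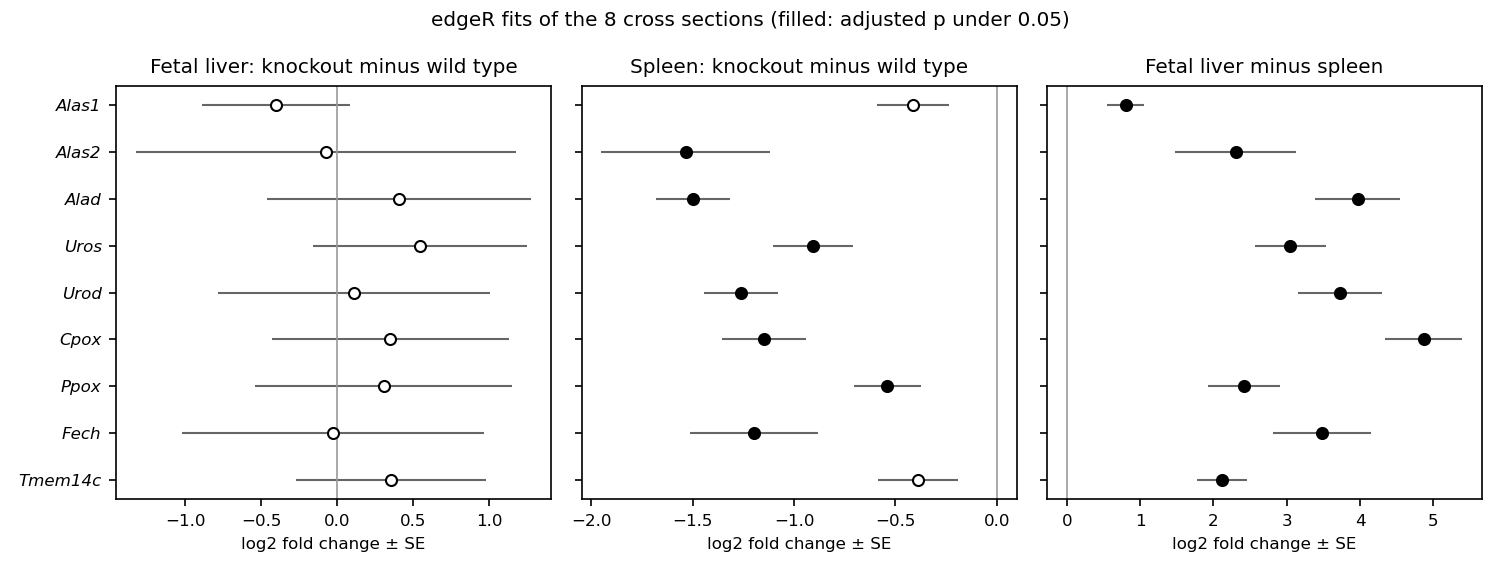
Log2 fold change ± SE of each heme synthesis gene in the edgeR fits of the cross sections, for knockout minus wild type in fetal liver and in spleen and for fetal liver minus spleen (filled points have an adjusted p under 0.05). No point is filled in the first panel, 7 are filled and negative in the second, and 9 are filled and positive in the third.

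The rest of the pathway was followed with a list of 22 genes for the supply of substrates, iron and cofactors and for porphyrin transport, and 4 genes of heme breakdown. In fetal liver against spleen 18 of the 22 were higher, where 25.6% of all genes were, and 1 was lower, where 21.4% of all genes were: the heme exporter Flvcr1, at -0.91 ± 0.20 (adjusted p = 0.00547). Examples are Abcb6, a porphyrin transporter, at 3.76 ± 0.41 on the log2 scale (adjusted p = 9.49e-05), Fam210b at 3.74 ± 0.56 (0.000627) and Atpif1, an inhibitor of the mitochondrial ATP synthase, at 3.52 ± 0.40 (0.000130). Hebp1, a heme-binding protein, rose by 2.83 ± 0.43 (0.000628), Glrx5, of iron-sulfur cluster assembly, by 2.68 ± 0.43 (0.000925), and the succinyl-CoA ligase subunits Sucla2 and Suclg2 by 2.33 ± 0.33 (0.000423) and 1.77 ± 0.25 (0.000476). Of the 4 breakdown genes only Blvrb was called, at 2.49 ± 0.51 (0.00349).

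In spleen 8 of the 22 supply genes were lower and 2 higher in the knockout, beside 6.79% and 13.8% of all genes. Abcb10, a mitochondrial transporter of the inner membrane, fell by 1.30 ± 0.21 (adjusted p = 0.000373), Hebp1 by 0.77 ± 0.20 (0.0127) and Atpif1 by 0.65 ± 0.18 (0.0159). Sucla2 was higher, at 1.07 ± 0.23 (0.00350). Of the breakdown genes, Hmox2, the constitutive heme oxygenase, was higher by 0.74 ± 0.17 (0.00565), and Blvrb, a biliverdin reductase abundant in red cells, fell by 0.85 ± 0.24 (0.0171). Neither list had a called gene in fetal liver between genotypes, where the largest differences were -0.78 ± 0.56 for Aco1, -0.73 ± 0.73 for Pgrmc1, -0.39 ± 0.41 for Hmox2 and -0.37 ± 0.58 for Clpx, nor in the interaction, where Sucla2 was at 1.40 ± 0.40 and Abcb10 at -1.34 ± 1.02.

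Across the spots of a section, the genes other than Alas1 tended to rise and fall together. For each spot, counts were scaled to 6000 and taken as log2 of the value plus 1, and Pearson's r was computed for each pair of genes in the 13 sections with at least 300 passing spots. Points share a library, a depth and a tissue layout, so that r is a description. The median of the 28 pairs without Alas1 was positive in 13 of 13 sections, from 0.055 in knockout spleen 1 to 0.900 in wild-type fetal liver 4, and the median over sections was 0.215. It was 0.294 and 0.117 in the purchased E13.5 and E14.5 livers, 0.471 in P8 marrow and 0.124 in 89-week marrow. Spleens had 0.392 and 0.168 (wild type), 0.055 and 0.070 (knockout) and 0.111 (purchased). The 3 highest sections, both livers numbered 4 (0.900 and 0.810) and P8 marrow, are the ones with the largest areas outside the main tissue. In main-tissue spots alone these 3 were still the highest. Wild-type fetal liver 4 then had 0.801, knockout fetal liver 4 had 0.528 and P8 marrow 0.459. The part of the other tissue in these values was not tested.

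Alas2 and Fech, the erythroid first step and the last step, formed the closest pair, with a median r of 0.632 and a range from 0.267 in the 89-week marrow to 0.938 in wild-type fetal liver 4. Alas2 with Alad followed at 0.441, and Ppox with Tmem14c was the weakest pair without Alas1, at 0.098. Alas2 with Tmem14c was positive in 11 of 13 sections and reached -0.146 in the purchased E13.5 liver. Uros had the fewest counts of the 8 in every section. The median r of its pairs was at most 0.168, with Alas2, although in single sections its r went up to 0.840, with Cpox. Alas1 stood apart: the median over its 8 pairs was negative in 10 of 13 sections, with a median of -0.030 and a range from -0.219 in wild-type fetal liver 4 to 0.168 in P8 marrow.

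The shared pattern was weaker when each spot was set against the mean of its adjacent spots. The median over sections for the 28 pairs was then 0.055 (0.010 to 0.129), still positive in 13 of 13 sections. Alas2 with Fech stayed the highest pair at 0.18. In the 89-week marrow the median of the pairs changed little, from 0.124 to 0.110. Taking the difference also adds the counting noise of the adjacent spots, which was not separated from the scale of the pattern. In main-tissue spots the median over sections was 0.123. In spots thinned to 2000 UMIs it was 0.075 and positive in 11 of 13 sections, all but the purchased E13.5 and E14.5 livers (-0.00015 and -0.0041). A weak r in sparse counts is no finding for a single pair.

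**Figure D4:**
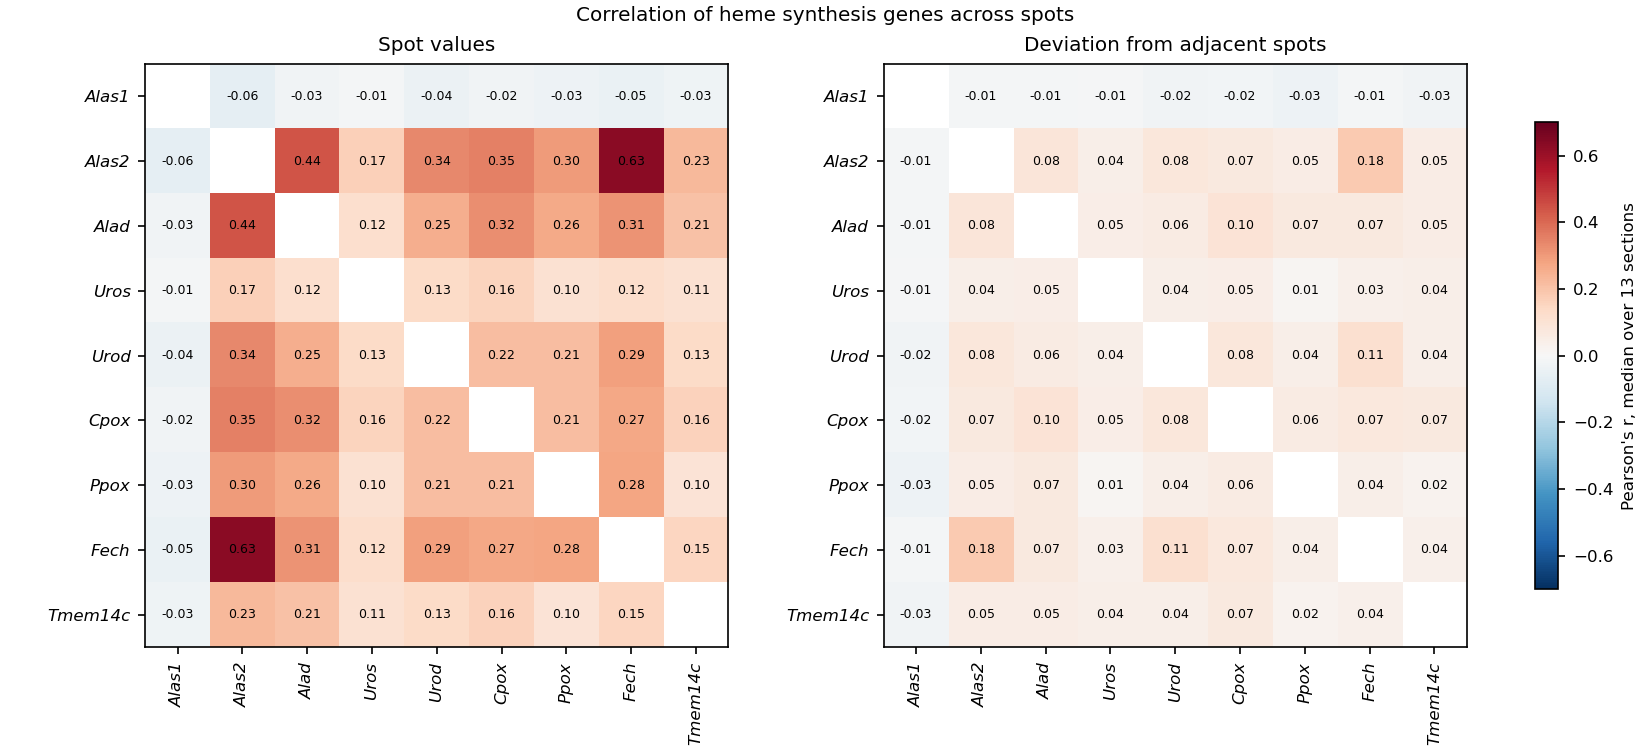
Pearson's r between each pair of heme synthesis genes, as the median over 13 sections, from spot values (left) and from each spot's deviation from its adjacent spots (right). Alas2 with Fech is the darkest cell in both panels (0.63 and 0.18), and the row of Alas1 is near 0.

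The 8 genes correlated positively with the erythroid list across spots, Alas2 and Fech most closely. The median r with the mean log value of its 14 genes was 0.85 for Alas2 (0.59 to 0.97 over 13 sections), 0.67 for Fech (0.40 to 0.95), 0.52 for Alad, 0.45 for Cpox, 0.44 for Urod, 0.36 for Ppox, 0.27 for Tmem14c and 0.19 for Uros. Each of the 8 was positive in 13 of 13 sections. Alas1 had a median of -0.10, from -0.23 in wild-type fetal liver 4 to 0.22 in P8 marrow, and in the 89-week marrow, where it was highest, its r was -0.14 with the erythroid list and 0.27 with the neutrophil list.

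The same spots were divided by their share of erythroid UMIs, and the richest 25% were set against the poorest 25%. In the knockout spleens Alas2 was still concentrated in erythroid-rich spots, with 7.99 and 12.2 CPM in the poorest 25% and 691 and 1268 in the richest, log2 ratios of 6.43 and 6.70. For wild type the poorest spots had 169 and 15.4 CPM and the richest 3817 and 1279, log2 ratios of 4.50 and 6.37. The richest 25% of spots of wild-type spleen 2 and knockout spleen 2 thus held nearly the same Alas2 level, with erythroid shares of 6.79% and 9.12% of their UMIs. Alad did not follow: it was at 59.0 CPM in the poorest and 398 in the richest spots of wild-type spleen 2, and at 41.6 and 87.0 in knockout spleen 2. Log2 ratios of Alad were 2.70 and 2.75 for wild type, against 0.60 and 1.06 for knockout. The globins weigh on this split. Without them the mean ratio of the 4 cross spleens was 4.09 (3.46 to 4.61) in place of 6.00 for Alas2. It was 2.79 in place of 3.37 for Fech and 1.73 in place of 1.78 for Alad.

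The other genes had lower ratios in the knockouts as well. In wild-type against knockout spleens the ratios were 2.84 and 1.93 against 0.89 and 0.85 for Cpox, 2.47 and 2.11 against 0.62 and 0.68 for Urod, 2.27 and 1.71 against 0.05 and 1.07 for Uros, and 1.47 and 1.18 against 0.19 and 0.39 for Ppox. Tmem14c stood at 1.43 and 1.48 against 0.61 and 0.61. Fech lay between, at 3.64 and 4.20 against 2.28 and 3.36. In the cross both wild types were above both knockouts in all of these 7 genes, Alad included, and for Alas2 both knockouts were above both wild types, although not in main-tissue spots (6.28 and 6.57 against 4.50 and 6.35). The purchased wild-type spleen did not follow the wild types of the cross: its ratios were 1.08 for Alad, 0.85 for Uros, 0.31 for Ppox, 1.88 for Fech, 1.21 for Urod, 1.61 for Cpox, 0.90 for Tmem14c and 3.26 for Alas2. It lay between the knockouts or near the higher one for Alad, Uros and Ppox, between the genotypes for Urod, Cpox and Tmem14c, and below all 4 cross spleens for Fech and Alas2. The split uses the red cell genes of each section itself, whose richest 25% held 21.2% and 6.79% of UMIs in wild type, 4.63% and 9.12% in knockout and 3.26% in the purchased spleen, so that these spots are not matched between sections, and no test was made.

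In the fetal livers the ratios were high in the sections with much other tissue. The livers numbered 4 gave 7.21 (wild type) and 6.69 (knockout) for Alas2 and 4.04 and 4.02 for Fech, while livers numbered 2 gave 0.96 and 0.91 for Alas2 and 0.68 and 0.46 for Fech, and the purchased livers 0.79 and 0.61 for Alas2. In main-tissue spots the livers numbered 4 gave 2.77 and 1.73 for Alas2 and 1.67 and 1.16 for Fech, and the livers numbered 2 gave 0.67 and 0.73 for Alas2. Tmem14c was lower in the erythroid-rich spots of the purchased E13.5 and E14.5 livers, at -0.24 and -0.22. In these livers Alad (0.063 and 0.024), Uros (0.098 and 0.017) and Cpox (0.10 and 0.047) were near level, and Urod, Ppox and Fech ran from 0.15 to 0.40. Alas1 was lower in the erythroid-rich spots of all 6 fetal livers, from -0.34 in the purchased E14.5 liver to -1.33 in wild-type fetal liver 2. The 2 marrows divided for Alas1, at 0.90 in P8 and -0.75 at 89 weeks (0.069 and -0.76 in main-tissue spots), and in the 4 cross spleens it was at 0.18 ± 0.17 (SD, n = 4).

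**Figure D5:**
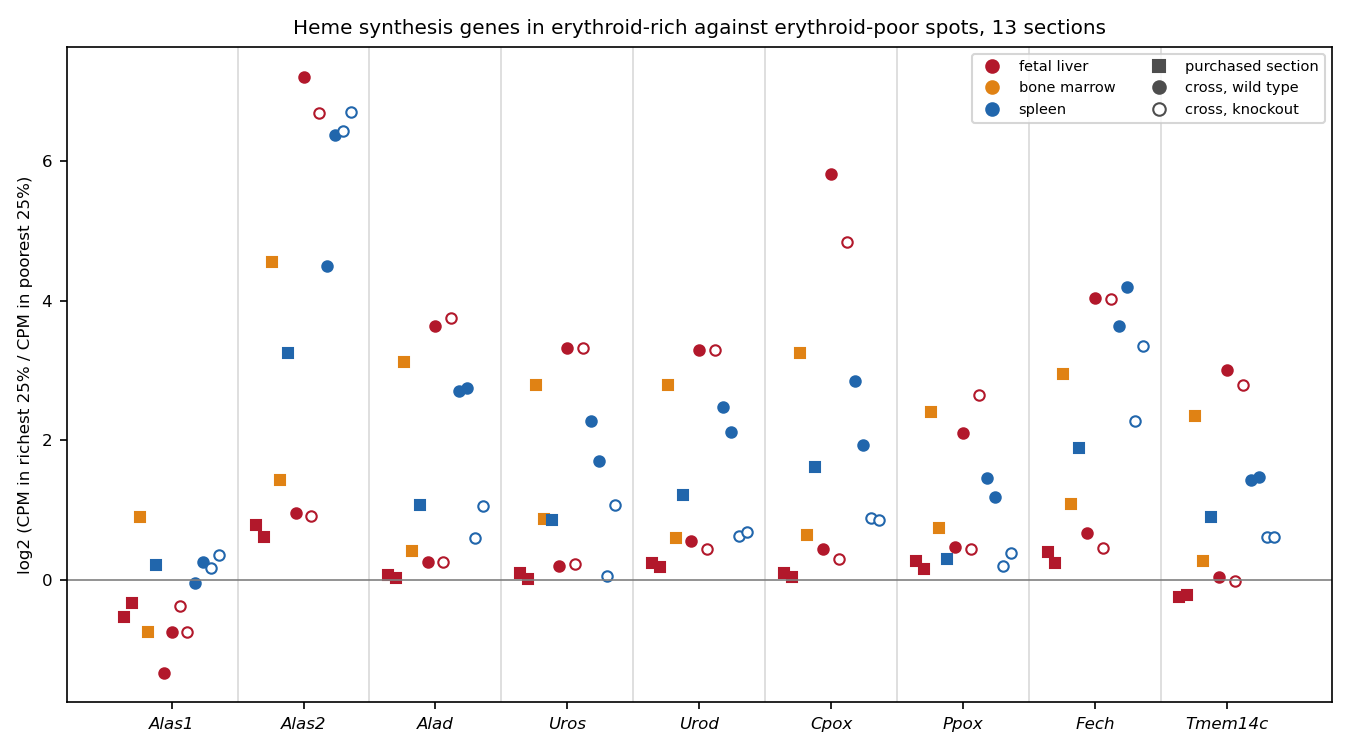
Log2 ratio of CPM between the erythroid-richest and the erythroid-poorest 25% of spots for each gene, 1 point per section (13 sections, coloured by tissue; open symbols are C1qa knockout). Alas2 is above 0 everywhere and reaches 7.21 in wild-type fetal liver 4 (2.77 in its main-tissue spots), and Alas1 is below 0 in the 6 fetal livers.

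The map of spots shows spleens brighter at the rim, and this was measured after the map was seen. Rim spots, those with fewer than 6 adjacent in-tissue spots, had more Alas2 than inner spots in all 5 spleens, by 0.80 and 3.14 on the log2 scale in wild-type spleens 1 and 2, 3.35 and 2.35 in knockout spleens 1 and 2 and 1.81 in the purchased spleen. Alad was higher at the rim by 0.92 and 2.41 in wild type, 0.95 and 0.94 in knockout and 0.89 in the purchased spleen, and the erythroid list by 0.78, 2.92, 3.17, 2.31 and 1.94. In the 6 fetal livers the erythroid list was lower at the rim, by 0.16 to 1.00. Among the 8 genes other than Alas1, only Ppox in knockout spleen 2, at -0.21, was not higher at the rim of a spleen.

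Genes of red cells were among those most like the heme synthesis genes. Over 7961 genes with a UMI in at least 50 spots of each of 13 sections, r with the mean of the 8 genes other than Alas1 had a median of -0.030, and the 10 genes with the highest median r included Hbb-bt (0.79), Car2 (0.79), Hbb-bs (0.75), Hba-a2 (0.73), Slc4a1 (0.68), Slc25a37 (0.66), Gpx1 (0.65) and Hist1h1c (0.60). Hbb-bt, Hbb-bs and Hba-a2 encode globin chains, Slc4a1 is a red cell membrane protein, Car2 is a carbonic anhydrase and Slc25a37 is the mitochondrial iron importer of erythroblasts. Of the pathway lists, Slc25a37 ranked 6, Blvrb 13 (r 0.58), Abcb10 40 (0.39), Hmox1 42 (0.39) and Glrx5 55 (0.36), while Slc25a28, the mitochondrial iron importer of other tissues, ranked 5554 (-0.051) and Ireb2, an iron-responsive RNA-binding protein, 5561 (-0.051).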

How the data were processed

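Formalin-fixed, paraffin-embedded tissue was profiled with the Visium probe kit, 1 library per section. The authors deposited raw UMI counts per gene and spot, made with Space Ranger on mm10 as the submitters' processing notes name them, and the software version in the matrix headers was 4, 2.1.1, 3.1.2 or 4.0.1. The deposited position, barcode and feature tables hold other values, namely spot positions, barcodes and gene names. Purchased sections have 32589 features and cross sections 19465, so that no test joins them; on the shared genes the CPM of purchased sections is higher throughout. Spots on tissue in which 1000 or more genes were detected entered, the minimum of the study, and counts were summed per section.

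Sums were tested with edgeR 4.0.16 (TMM, filterByExpr, glmQLFit) in R 4.3.3 over all genes, and with DESeq2 1.42.0, at a Benjamini-Hochberg adjusted p under 0.05. The fits were tested on simulated data whose dispersion was well below that of the fetal livers. The simulation therefore does not show what the fetal liver fit could detect. The p-values of the genotype fits measure the spread between 2 sections a group. The common dispersion was 0.263 in fetal liver and 0.0245 in spleen. Fetal livers of the same number come from the same dam, and their deviations from the genotype means correlated at 0.652 over 18986 genes. The spleen numbers are not said to name litters (0.0394). Alternatives were upper-quartile or no scaling, no filter on low counts, all in-tissue spots, main-tissue spots, a replicate block and leaving out each section, and for spots Spearman's rho, thinning and deviation from adjacent spots. The fits without scaling and the block with main-tissue spots were chosen after seeing the data.

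Besides the 9 genes, the text names pathway genes with the smallest adjusted p (at most 8 per comparison; otherwise the 4 largest differences) and the 10 genes most like the mean of the 8 genes other than Alas1 across spots. Flvcr1 and Blvrb in fetal liver against spleen, and the pathway ranks, were named after their values were seen, and some genes that this rule selects are not reported here. The genes and lists were chosen with earlier results of these data known.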

Additional observations from a re-analysis of the deposited data

Results flagged for a closer look

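The genotype effect differed between spleen and fetal liver for 4 genes when litter was a block in the livers (edgeR quasi-likelihood test of the interaction, adjusted over all genes). The differences, spleen minus fetal liver on the log2 scale, were -1.94 for Alad, -1.54 for Uros, -1.57 for Cpox and -1.43 for Urod. That fit called 1409 of the 19180 genes tested, and the fit without the block called none of them (0%). Both take 1 spread per gene for both tissues. Fitted apart without a block, the common dispersion was 0.263 in fetal liver and 0.0245 in spleen. In both spleens of the knockout the 4 genes were below both wild-type spleens, and in the knockout livers Alad, Uros and Cpox were above both wild types. In main-tissue spots of the livers Cpox overlapped between the genotypes, and Alad and Uros did not.

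UMIs of the 9 genes were also counted at array spots outside the tissue of the purchased sections, which no comparison uses. Per spot they came to 3.78% of the in-tissue value in the E13.5 fetal liver, 7.66% in the E14.5 fetal liver, 12.3% in marrow at P8, 22.3% in marrow at 89 weeks, 1.31% in the EDTA-decalcified marrow and 14.9% in adult spleen. The source of these UMIs was not tested.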

How the results depend on the processing

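In fetal liver none of the 9 genes was called by genotype under any alternative, while the count over all genes, 0 with edgeR, was 12 with DESeq2, 1 in main-tissue spots, 15 without scaling factors, 157 with the litter block and 27 with the block in main-tissue spots. With 1 section left out it was 0 to 109. In spleen 7 of the 9 were called, against 4 with DESeq2 and 3 to 8 with 1 section left out (240 to 4972 genes in all). The replicate block, although the spleen numbers are not known to pair, left 7 called and raised the count over all genes to 4968. In fetal liver against spleen 5 of the 9 were called in wild-type sections alone, and the count over all genes was 5897 without scaling factors and 5754 to 12444 with 1 section left out. The interaction had 4 of the 9 and 1409 genes called with the litter block, 9 genes with DESeq2 and 0 to 2 with 1 section left out. No other call of the 9 genes changed with the block.

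Signs of uncalled differences in fetal liver changed. Without scaling factors, with the litter block and with upper-quartile factors Alas2 was at 0.15, 0.038 and 0.073 and Fech at 0.23, 0.12 and 0.14. In main-tissue spots Urod was at -0.11 and Tmem14c at -0.038, and with the block as well Urod was at -0.18, Tmem14c at -0.015 and Ppox at -0.0055. With 1 section left out the ranges were -0.75 to 0.12 for Alas1, -1.82 to 1.93 for Alas2, -0.34 to 1.29 for Alad, -0.25 to 1.63 for Uros, -0.93 to 1.34 for Urod, -0.23 to 1.23 for Cpox, -0.87 to 1.38 for Ppox, -1.21 to 1.55 for Fech and -0.12 to 0.73 for Tmem14c. In spleen Tmem14c ran from -0.70 to 0.015. In the interaction Alas1 was at 0.060 with DESeq2 and ran from -0.51 to 0.33, Alas2 from -3.43 to 0.26, Ppox from -1.88 to 0.31 and Fech from -2.70 to 0.0025. The cause was not tested.

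Main-tissue spots gave a summed CPM of the 9 genes of 3025 in P8 bone marrow and 5827 in wild-type fetal liver 4, because they leave out other tissue. With 10% in place of 25% of spots at each end, Alas1 in erythroid-rich against erythroid-poor spots of the cross spleens was at 0.43. The EDTA-decalcified marrow has too few counts to place any gene but Alas2, and stages of the purchased mice have 1 section each.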
